A study of Mus musculus with 6 samples.

Results

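Mucins are long glycoproteins whose central stretch, rich in serine and threonine, carries dense chains of sugars. Membrane mucins are anchored in the apical surface of epithelial cells, where they form a barrier and can take part in signalling, and secreted mucins form the gel of mucus. The genes described here are 8 mucin genes given by symbol: 6 membrane mucins (Muc1, Muc4, Muc13, Muc15, Muc16 and Muc20) and 2 secreted mucins (Muc5b and Muc6). Of these, 7 had a row among the 24421 gene symbols of each sample's file, and Muc16 is not analysed here. The genes were chosen by name, and Muc13 was selected on its measured level in castrated against intact samples. Its difference is therefore given as a description, and no test of it is used as support. The list as a whole was drawn up with results of these data known.

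The samples were mouse prostate, all from mice that carry the PB-Cre4 transgene, in which Cre is driven by a probasin promoter in prostate epithelium, together with a floxed allele. There were 2 intact and 4 castrated samples, and both groups carried the same alleles. Castration removes the main source of androgens, and the series title places the study on the androgen receptor and translation in advanced prostate cancer. The labels used here give no age, strain background or time since castration and leave it unsaid whether each sample was a different animal. The p-values therefore rest on sample-to-sample spread alone, and that spread may be technical.

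Depth ran from 43679297 to 59170793 reads assigned to genes. Values are counts per 1000000 assigned reads (CPM), divided by a size factor per sample, and are called rescaled CPM. All 8 luminal epithelial markers were above the filter on low values, with a summed level of 10266 to 10436 in intact and 7328 to 11028 in castrated samples, and 0 of 7 seminal vesicle markers were. Castrated sample 4 stood apart from castrated samples 1 and 3 (correlations of log2 values of 0.941 and 0.954, against 0.988 between samples 1 and 3). With castrated sample 2 it correlated at 0.970, close to the 0.969 between castrated samples 1 and 2, and with each intact sample at 0.95.

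Muc13 lies on chromosome 16 of GRCm38 (33794037 to 33819934, plus strand) and has 13 exons in its longest GENCODE transcript. Its mucin stretch is shown here because it is the feature that makes the protein a mucin, and because near-identical copies affect where a short read can be placed. The third exon (33798933 to 33799577, 645 bases) is coding and opens with 7 tandem copies of an 81-base unit. Of these copies, 5 have the same sequence, and the 7 together take up 87.9% of the exon. In the lines below, read from the GENCODE transcript 5′ to 3′, capitals mark bases that differ from the shared unit.
Muc13 repeat 1, chr16:33798933-33799013: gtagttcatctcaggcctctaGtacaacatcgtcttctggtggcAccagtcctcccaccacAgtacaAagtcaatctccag
Muc13 repeat 2, chr16:33799014-33799094, the same in repeats 3 to 6: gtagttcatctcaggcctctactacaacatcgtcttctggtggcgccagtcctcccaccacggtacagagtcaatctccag
Muc13 repeat 7, chr16:33799419-33799499: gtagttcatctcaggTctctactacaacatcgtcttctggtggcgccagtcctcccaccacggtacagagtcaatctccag
Of all 50-base stretches in this transcript, 14.2% occur more than once within it. The same measure was 21.9% for Muc5b, 12.7% for Muc6, 10.1% for Muc4, 1.28% for Muc1 and 0% for Muc15 and Muc20. In Muc4 the commonest spacing between identical stretches was 372 bases and in Muc5b 942 bases. Reads that fall wholly inside such copies have several equally good positions. The sources used here do not say how the authors' counting treated them, and the gene values may leave out part of these exons.

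The 250 bases before the RefSeq start of 3 membrane mucins are shown because these genes had 3 different patterns across the samples, described below. Capitals mark letters that match one of the motifs searched on both strands: TGTTCT, bound as part of a longer site by the androgen and glucocorticoid receptors, the TATA box TATAAA, the GC box GGGCGG, the forkhead site TGTTTAC and the STAT site TTCNNNGAA.
Muc13, GRCm38.p6, plus strand, chr16:33793787-33794036: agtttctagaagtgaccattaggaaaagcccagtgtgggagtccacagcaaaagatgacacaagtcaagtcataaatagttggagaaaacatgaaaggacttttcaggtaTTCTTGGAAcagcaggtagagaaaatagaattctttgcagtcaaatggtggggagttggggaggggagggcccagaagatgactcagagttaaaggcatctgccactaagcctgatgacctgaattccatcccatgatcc
Muc1, GRCm38.p6, plus strand, chr3:89228806-89229055: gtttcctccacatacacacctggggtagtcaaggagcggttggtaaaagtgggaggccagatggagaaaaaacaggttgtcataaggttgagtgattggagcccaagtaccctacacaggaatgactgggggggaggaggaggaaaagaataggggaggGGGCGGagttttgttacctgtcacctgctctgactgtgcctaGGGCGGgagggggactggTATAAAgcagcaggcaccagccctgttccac
Muc4, GRCm38.p6, plus strand, chr16:32735636-32735885: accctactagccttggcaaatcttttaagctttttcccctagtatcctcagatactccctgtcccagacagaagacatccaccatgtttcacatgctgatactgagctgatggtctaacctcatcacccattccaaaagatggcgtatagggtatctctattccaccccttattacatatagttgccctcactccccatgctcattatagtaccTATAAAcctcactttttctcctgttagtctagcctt
The Muc13 window shown held 1 STAT match and none of the other motifs, and a second RefSeq window of Muc13, not shown, held none of the 5. The Muc1 window held a TATA box and 2 GC boxes, and the Muc4 window a TATA box. Of 32851 RefSeq promoter windows of this length, 7.02% held the STAT letters, 12.4% the TATA box, 32.7% the GC box, 16.1% TGTTCT and 3.17% the forkhead site. These matches are letters in a window and are not known to be sites in these cells.

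Muc13, a membrane mucin known from the intestinal surface, was the mucin gene that differed most between the groups. Intact samples 1 and 2 had 22.7 and 19.6 rescaled CPM, against 366, 168, 316 and 93.7 for castrated samples 1 to 4. Each castrated sample lay above both intact samples, and the castrated samples spread over a 3.91-fold range. The means were 21.1 ± 2.18 (SD, n = 2) and 236 ± 127 (SD, n = 4), and on the log2(rescaled CPM + 0.5) scale the difference was 3.26 with a standard error of 0.53. That is 9.61-fold, and it ranked as the 24th largest rise among 13898 tested genes. Leaving out 1 sample at a time gave rises of 7.93-fold to 12.5-fold, the largest without castrated sample 4. An antisense gene, Gm15657, covers 6.06% of the exon bases of Muc13, and no source used here says if reads were counted by strand.

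**Figure D1:**
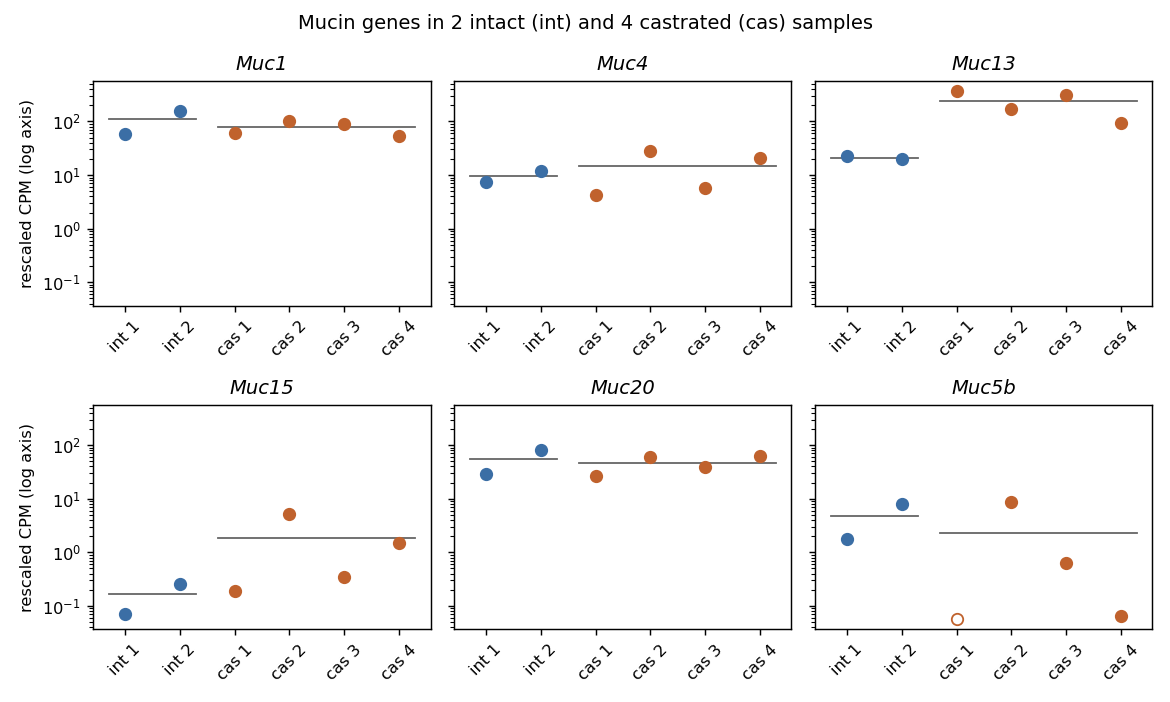
Rescaled CPM on a log axis of the 6 mucin genes above the filter, 1 point per sample, intact in blue and castrated in orange, with grey lines at group means. The open point stands for 0 reads, drawn at the level of 3 reads. Muc13 is the gene whose groups do not overlap (19.6 to 22.7 against 93.7 to 366).

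The tested genes were those with at least 1 CPM in at least 2 samples, and 6 of the 7 mucin genes were among them. In limma with Benjamini-Hochberg adjustment over all tested genes, 1 of the 6 passed the threshold of 0.05, higher in castrated samples, against 1.97% of all tested genes in either direction. That gene was Muc13, which was listed for this contrast, so nothing is read from the count. The groups did not overlap in 1 of the 6, against 26.6% of all tested genes. Of the 6 log2 differences 3 were above and 3 below 0, with a median of 0.04, against 0.00 for all tested genes. Those above 0 include Muc13, listed for this contrast, and Muc15, which passed the filter through castrated samples alone. Nothing is therefore read from this split or median, nor from the overlap count, whose 1 gene was Muc13. In bulk tissue, a change in the number of cells that make a mucin and a change in RNA per cell cannot be told apart.

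Muc1, the widely expressed membrane mucin of glandular epithelium (chromosome 3, 89229057 to 89233381), was at 58.9 and 159 in intact samples 1 and 2. It was at 60.2, 103, 91.5 and 54.4 in castrated samples 1 to 4. Castrated samples 1 to 3 lay between the 2 intact values and castrated sample 4 lay below both. The 2.70-fold gap between the intact samples was wider than the 1.89-fold range of the castrated ones. The log2 difference, castrated minus intact, was -0.38 with a 95% interval of -1.42 to 0.66 (limma adjusted p = 0.743). It was -1.09 without intact sample 1 and 0.33 without intact sample 2, so its sign changed with the intact sample used.

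Muc20, a membrane mucin known to bind the receptor tyrosine kinase MET (chromosome 16, 32777419 to 32797435, minus strand), was at 28.9 and 82.0 in intact samples 1 and 2. It was at 26.6, 58.9, 38.4 and 62.6 in castrated samples 1 to 4. As with Muc1, intact sample 2 was the highest of the 6 and intact sample 1 was among the lowest. The log2 difference was -0.14 and its interval ran from -1.32 to 1.04 (limma adjusted p = 0.935). The ratio of Muc1 to Muc20 lay between 1.74 and 2.39 in every sample except castrated sample 4, where it was 0.869.

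Muc4, a large membrane mucin that can bind the receptor ERBB2 (chromosome 16, 32735886 to 32782391, plus strand), was at 7.45 and 11.9 in the intact samples. In castrated samples 1 to 4 it was at 4.31, 27.6, 5.68 and 21.0. The castrated samples thus fell on both sides of the intact pair, with samples 2 and 4 above it and samples 1 and 3 below it. The log2 difference between groups was 0.22 and its interval ran from -1.62 to 2.06 (limma adjusted p = 0.935). Muc4 and Muc20 lie tail to tail and share 627 exon bases on opposite strands, 5.33% of the exon bases of Muc4 and 15.6% of those of Muc20, so reads there may be assigned to either gene or to neither. The ratio of Muc4 to Muc20 ranged from 0.145 to 0.469.

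Muc15, a membrane mucin without long repeats (chromosome 2, 110721340 to 110739527), was the weakest of the tested genes in intact samples, at 0.0700 and 0.262, from 18 reads in all. In castrated samples 1 to 4 it was at 0.190, 5.23, 0.351 and 1.50, from 415 reads. Castrated samples 2 and 4 were again the high ones, and castrated sample 1 lay within the intact range. Muc15 passed the filter through castrated samples 2 and 4 alone, so its differences are given as descriptions, with no p-value. Its log2 difference was 1.29 and its interval ran from -0.74 to 3.32. On recovered reads, with no such pseudocount, the log2 difference was 3.39 by edgeR and 3.44 by DESeq2. Muc15 lies inside Ano3, which is on the opposite strand and covers 1.71% of its exon bases.

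Muc5b, a secreted gel-forming mucin of airway and salivary glands (chromosome 7, 141839070 to 141873084), was at 1.75 and 7.97 in intact samples 1 and 2. In castrated samples 1 to 4 it was at 0, 8.56, 0.631 and 0.0644. Castrated sample 2 lay near the higher intact sample and the other 3 castrated samples lay below both intact ones. Sample 1 had 0 reads, which allows up to 0.0569 rescaled CPM (3 reads, counting error only). The log2 difference was -1.74 and its interval ran from -4.69 to 1.21 (limma adjusted p = 0.572). It was -2.68 without castrated sample 2 (limma adjusted p = 0.184). Muc6, the secreted mucin of gastric glands, had 0 reads in all 6 samples, which allows up to 0.0483 to 0.0700 rescaled CPM depending on the sample.

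**Figure D2:**
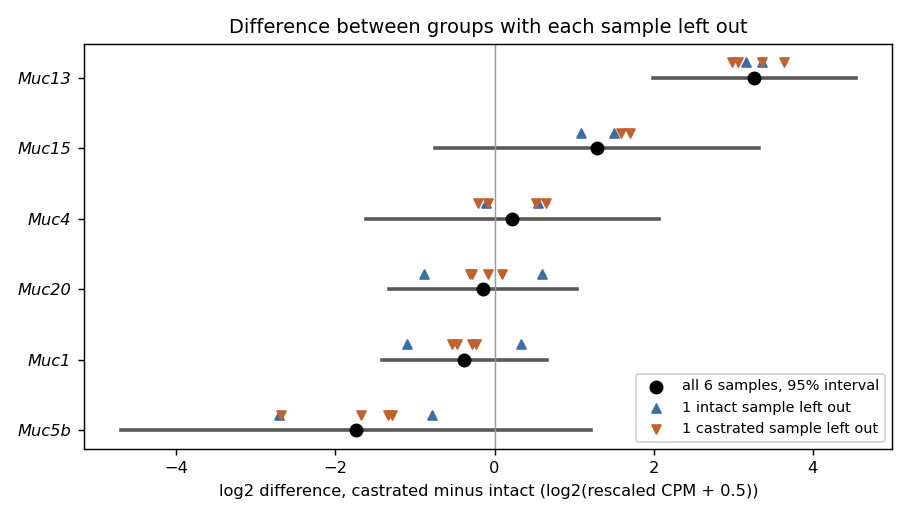
Log2 difference, castrated minus intact, of each mucin gene with all 6 samples (black point and 95% interval) and with 1 sample left out (triangles). For Muc13 all values lie between 2.99 and 3.64, and those of Muc1, Muc20 and Muc4 fall on both sides of 0.

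To compare levels between genes, rescaled CPM was divided by exon length in kb (GENCODE). In both intact samples Muc1 was the highest of the 7 genes, at 25.1 and 67.9 per kb, and made up 62.0% and 70.5% of their summed level. Muc20 (7.17 and 20.4) and Muc13 (7.46 and 6.45) followed, and the ranges of those 2 genes overlapped. Muc4 (0.633 and 1.01), Muc5b (0.117 and 0.533) and Muc15 (0.0196 and 0.0733) came next, with ranges that did not overlap. In castrated samples Muc13 was the highest in 4 of 4 (30.8 to 120 per kb), ahead of Muc1 (23.2 to 43.8) and Muc20 (6.62 to 15.5). Muc13 and Muc1 overlapped in range there, while Muc1 and Muc20 did not. Muc4 (0.366 to 2.35), Muc15 (0.0531 to 1.46) and Muc5b (0 to 0.572) followed with overlapping ranges. The share of Muc13 in the summed level went from 6.69% and 18.4% in intact samples to between 43.0% and 78.7% in castrated samples. Among 13420 tested genes with a length, the mean level of Muc13 per kb stood at percentile 53.1 in intact and 95.5 in castrated samples, and that of Muc1 at 91.4 and 88.2.

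**Figure D3:**
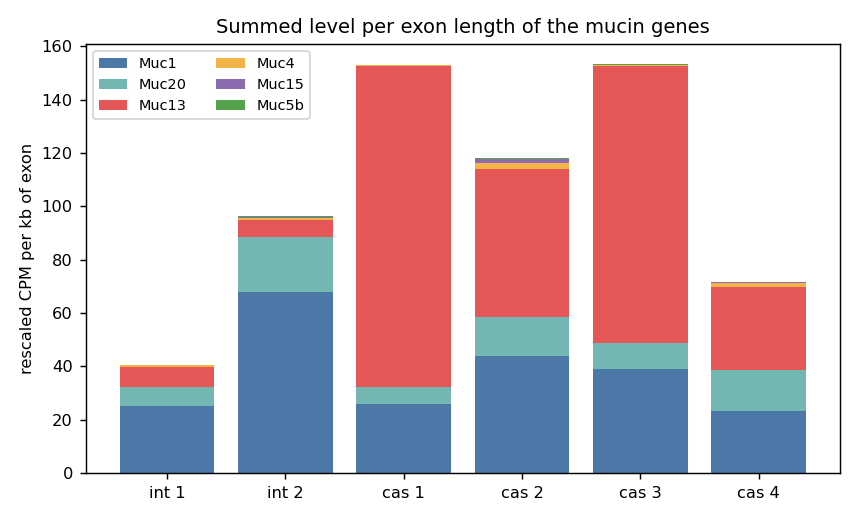
Rescaled CPM per kb of exon of the mucin genes, stacked for each sample. Muc1 is the largest segment in both intact samples (25.1 and 67.9) and Muc13 in all 4 castrated samples (30.8 to 120).

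The mucin genes did not rank the castrated samples alike. Muc13 ran from castrated sample 1 through 3 and 2 to 4, whereas Muc4 and Muc15 were high in samples 2 and 4 and low in samples 1 and 3. On the log2 scale, castrated sample 4 lay 1.52 below the mean of the other castrated samples for Muc13, while it lay 1.19 above for Muc4. Castrated sample 1 lay 1.10 above the others for Muc13 and fell by 1.69 for Muc4. The 7 basal epithelial markers had a summed level of 3747 and 4166 in intact samples and of 789, 3699, 979 and 2933 in castrated samples 1 to 4. The basal keratin gene Krt5 was at 209, 1364, 236 and 871 in those 4. Of the 7 basal markers 0 were called higher (0.698% of all tested genes) and 1 lower (1.27%) in castrated samples. The 6 urothelial markers mark the lining of the bladder and urethra. They summed to 61.8 and 196 in intact samples and to 103, 198, 66.3 and 188 in castrated ones. Of the 5 tested 0 were called (1.97% of all tested genes), and Upk3b was near 0 (at most 0.157). The 6 markers of progenitor-like luminal cells summed to 4929 and 5256 in intact samples and to 3308, 5245, 2750 and 3740 in castrated samples 1 to 4. Among them 0 were called higher (0.698% of all tested genes) and 1 lower (1.27%). The summed levels of these 3 lists were thus higher in castrated samples 2 and 4 than in 1 and 3, as Muc4, Muc15 and Muc20 were. Single markers differed in this. Krt4 was at 194, 2117, 301 and 1033 in castrated samples 1 to 4, but Cldn10 was at 109, 68.7, 141 and 18.8. Ly6a, at 2212, 1723, 1525 and 1694, was highest in sample 1. Upk1a was at 42.7, 90.5, 17.9 and 137 and Upk1b at 57.1, 83.8, 44.3 and 30.9. The basal marker Itgb4 was at 134, 161, 172 and 190. The part of such cells in those levels was not tested.

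Other marker lists were higher in castrated samples, as Muc13 was. Acid-secreting cell markers summed to 2.54 and 15.3 in intact samples and to 34.7 to 156 in castrated samples. Of the 5 tested, 4 needed castrated samples to pass the filter on low values, so no count of called genes is given. Slc4a1, a defining gene of such cells, was below the filter. Neutrophil markers summed to 78.5 and 37.6 and to 218 to 385, with 4 of 6 called higher against 0.698% of all tested genes. Smooth muscle markers summed to 193 and 208 and to 256 to 460, with 0 of 6 called (1.97% of all tested genes). Their part in the level of Muc13 was not tested. Of 10 intestinal goblet cell and enterocyte markers, 5 were tested and 0 called (1.97% of all tested genes). Their summed level was 168 and 549 in intact and 270 to 336 in castrated samples. Within that list the cadherin gene Cdh17, named after its values were seen, was at 70.3 and 47.0 in intact samples and at 271, 122, 244 and 83.3 in castrated samples 1 to 4. The castrated samples had the same order for Cdh17 as for Muc13, and the log2 difference between groups was 1.48 (limma adjusted p = 0.207). The median log2 difference of the list went the other way, at -1.61, and Clca1 and Tff3 were at -1.63 and -1.38. The summed levels of all castrated samples lay between those of the 2 intact samples. Tff3 was at 1.05 in intact sample 1 and at 74.3 in intact sample 2. The intestinal regulators Cdx1 and Cdx2 and the gel mucin gene Muc2 were below the filter.

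**Figure D4:**
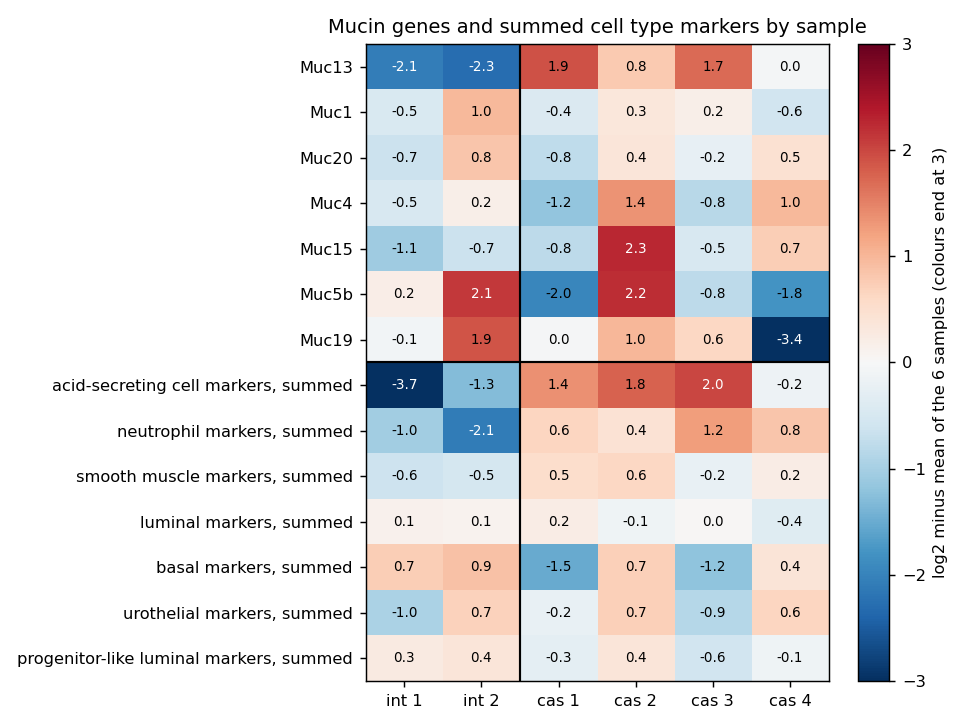
Log2 values of the mucin genes (top) and of summed cell type markers (bottom) in each sample, minus the mean of the 6 samples, for intact (int) and castrated (cas) samples. Muc4, Muc15 and the sums of the basal and urothelial markers are higher in castrated samples 2 and 4 than in 1 and 3, and Muc13 runs the other way.

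By a rule that took the 3 genes of highest Pearson correlation over the 6 samples among up to 11145 genes with a mean of at least 5 rescaled CPM, the genes most like Muc13 were Nr4a2, an orphan nuclear receptor, Stfa1, a cysteine protease inhibitor, and Rmdn2 (r of 0.996, 0.995 and 0.995). Stfa1 was at 0.817 and 0.785 in intact samples and at 10.8, 6.10, 10.7 and 2.85 in castrated samples 1 to 4. Those most like Muc4 were Sh3bp5l, Trps1 and Zfp750 (0.993, 0.993 and 0.987). Zfp750, a regulator of epidermal differentiation, was at 71.5 and 81.4 in intact samples and at 60.9, 122, 67.6 and 117 in castrated ones. Those most like Muc15 were Porcn, Ttc22 and Crnn (0.995, 0.992 and 0.990). Crnn, a gene of squamous epithelium, was at 0 and 1.19 in intact samples and at 0.834, 74.7, 1.32 and 12.6 in castrated ones. Muc1 was most like Pcolce, Wfs1 and Chp1 (0.989, 0.969 and 0.961), Muc20 most like Kif19a, Igfals and Ccdc129 (0.984, 0.976 and 0.975), and Muc5b most like Slc22a21, Wfdc2 and Fancc (0.970, 0.961 and 0.954). Each is the top of a search over many genes with 6 points in 2 groups, given as a description.

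Muc13, Muc4 and Muc20 share chromosome 16, with 997 kb between Muc20 and Muc13. The nearest tested genes beside Muc13 were Heg1, 22.5 kb away on one side, and Itgb5, 9.73 kb away on the other. Heg1 was at a mean of 10.8 in intact and 11.0 in castrated samples (log2 difference -0.07, limma adjusted p = 0.964). Itgb5, an integrin subunit, was at 105 and 137 (0.37, limma adjusted p = 0.163). Next to Muc4 and Muc20, Tnk2 had a log2 difference of -0.40 and Fyttd1 of 0.13 (limma adjusted p = 0.183 and 0.567).

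Of the 19 other mucin and mucin-like genes listed, 14 had a row and 8 were tested, of which 0 were called higher (0.698% of all tested genes) and 1 lower (1.27%). The lower one was Podxl, which encodes the sialomucin podocalyxin (chromosome 6, 31519488 to 31563981). It was at 54.5 and 52.5 in intact samples and at 17.5, 16.1, 14.1 and 24.4 in castrated samples. It fell 2.97-fold (log2 difference -1.57, standard error 0.21, limma adjusted p = 0.0243), with every castrated sample below both intact ones. The call was kept without castrated sample 4 and lost with any other sample left out (adjusted p from 0.0656 to 0.199), while the fold stayed between 2.76 and 3.30. Mcam, an adhesion molecule of vessels and smooth muscle, was at a mean of 61.2 ± 1.25 (SD, n = 2) and 34.1 ± 7.06 (n = 4) and did not pass (limma adjusted p = 0.0772). Of the 8 genes 3 had an unadjusted limma p under 0.05 (15.9% of all tested genes). DESeq2 called 2 of them (9.31% of all genes it tested). Podxl is also made by endothelial cells. The 6 endothelial markers summed to 124 and 116 in intact samples and to 71.0, 71.8, 72.6 and 128 in castrated samples 1 to 4. Of these 6, 0 were called (1.97% of all tested genes). Their part in the level of Podxl was not tested.

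Muc19, a secreted gel-forming mucin of salivary glands (chromosome 15, 91838326 to 91934555), was at 5.32 and 22.3 in intact samples and at 5.54, 11.8, 8.94 and 0.0805 in castrated samples. Castrated sample 4 was far below the other 5 samples, and intact sample 2 was the highest, as it was for Muc1 and Muc20. The log2 difference was -1.36 (limma adjusted p = 0.680). Muc2, the intestinal gel mucin, was at 7.26 in intact sample 2 and at 0.0179 to 0.322 in the other samples, and was not tested. Muc5ac, the gel mucin of stomach and airway, had 11 reads in all 6 samples together.

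Sugar chains are started on mucins by GALNT enzymes, which attach the first sugar to serine or threonine, and are then extended into core structures. Of 18 GALNT family genes 15 were tested and 0 were called, against 1.97% of all tested genes, with a median log2 difference of 0.04. At an unadjusted p under 0.05 there were 2 (15.9% of all tested genes), Galnt12 and Galnt7, at log2 differences of 0.88 and 0.88 (limma adjusted p = 0.0922 and 0.133). edgeR gave them adjusted p of 0.104 and 0.125 and DESeq2 0.00361 and 0.00649. DESeq2 called 3 of the 15, against 9.31% of all genes it tested. The third, Galntl6, passed the filter through castrated samples alone, so nothing is read from that count. It was at 0.0934 and 0.0523 in intact samples and at 1.90, 1.00, 1.10 and 0.129 in castrated samples. Galnt6 was at 43.1 and 26.3 in intact samples and at 12.5, 106, 15.2 and 91.6 in castrated samples 1 to 4, and the castrated samples had the order seen for Muc4. It was named after its values were seen.

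Of 19 genes that extend and cap these chains 14 were tested, 1 was called higher (0.698% of all tested genes) and 0 lower (1.27%), with a median of -0.02. The one that rose was Gcnt1, which makes the core 2 branch (chromosome 19, 17326141 to 17372844). It was at 11.2 and 13.4 in intact samples and at 36.3, 42.0, 40.6 and 31.1 in castrated samples, so that the groups lay well apart and castrated sample 4 was close to the others. The rise was 2.96-fold (log2 difference 1.57, standard error 0.16, limma adjusted p = 0.0106). edgeR and DESeq2 on recovered reads called it as well (adjusted p = 0.0134 and 1.38e-14). Leaving out intact sample 1 or 2 or castrated sample 3 ended the call (limma adjusted p = 0.126, 0.0990 and 0.0522), and the fold stayed between 2.72 and 3.22. B3gnt7 had the next smallest p of the list, at a log2 difference of 0.83 (limma adjusted p = 0.133). Of the 14 genes 4 had an unadjusted limma p under 0.05 (15.9% of all tested genes), and DESeq2 called 2 (9.31% of all genes it tested).

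Of 22 mucus granule and goblet cell genes 13 were tested and 0 were called by limma (2 at an unadjusted p under 0.05, against 15.9% of all tested genes), with a median of 0.16. Agr2, a disulfide isomerase needed for mucin folding, was at 162 and 154 in intact samples and at 880, 399, 520 and 203 in castrated samples 1 to 4. Every castrated sample lay above both intact ones, in the order seen for Muc13, with a log2 difference of 1.47 (limma adjusted p = 0.228, edgeR 0.208 and DESeq2 0.00716). The other was Creb3l1, a stress-activated transcription factor, at -0.82 (limma adjusted p = 0.114). Clca1, a secreted goblet cell protein, was at 66.5 and 228 in intact samples and at 12.2, 132, 7.08 and 202 in castrated samples, high in castrated samples 2 and 4 as Muc4 was. It was named after its values were seen.

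Of 17 partners and shedding enzymes of membrane mucins all 17 were tested and 0 were called by limma (3 at an unadjusted p under 0.05, against 15.9% of all tested genes), with a median of -0.18. Ezr, the membrane linker ezrin, and St14, the protease matriptase, had the smallest p, at log2 differences of -0.58 and -0.34 (limma adjusted p = 0.0798 and 0.182). Msln, the partner of Muc16 on cell surfaces, was at 61.5 and 163 in intact samples and at 8.93, 98.2, 11.3 and 58.2 in castrated samples. Of 18 regulators of mucin genes 14 were tested and 0 were called by limma (5 at an unadjusted p under 0.05, against 15.9% of all tested genes), with a median of -0.03. Nr3c1, the glucocorticoid receptor gene, was at a log2 difference of 0.72 (limma adjusted p = 0.0555). Pgr, the progesterone receptor gene, was at 0.0814 ± 0.0822 rescaled CPM (SD, n = 2) in intact and 2.26 ± 1.17 (n = 4) in castrated samples, and passed the filter through castrated samples alone. In the granule, partner and regulator lists edgeR called 0 genes (1.46% of all tested genes) and DESeq2 called 2, 2 and 4 (9.31% of all genes it tested). Pgr was among those 4 and among the 5 at an unadjusted p under 0.05, so nothing is read from the regulator counts.

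**Figure D5:**
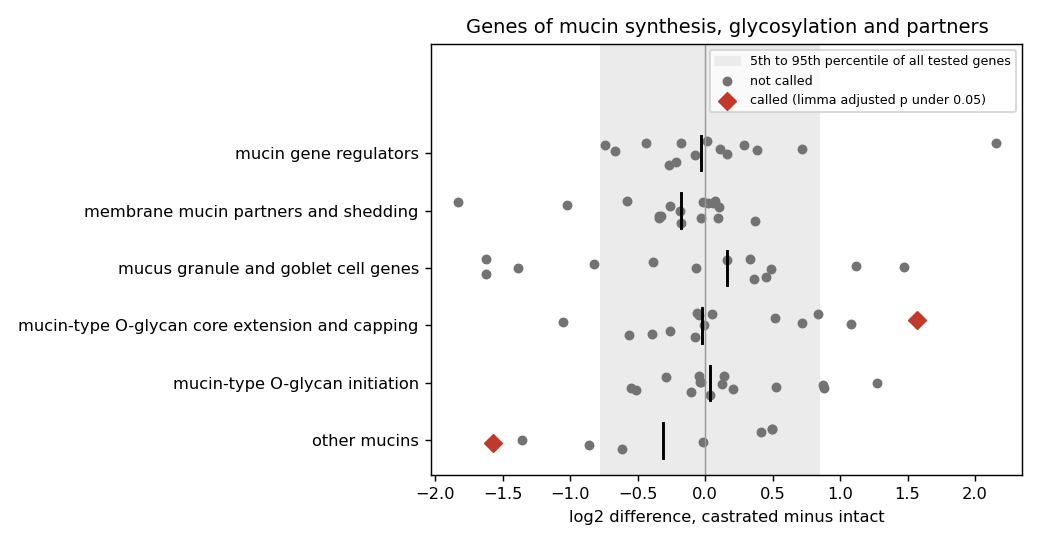
Log2 difference, castrated minus intact, of each tested gene in 6 lists, with black bars at list medians and a grey band from the 5th to the 95th percentile of all tested genes (-0.77 to 0.84). Gcnt1 (1.57) and Podxl (-1.57) are the 2 called genes, drawn as red diamonds.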

How the data were processed

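RNA was taken from mouse prostate with a column kit and DNase I and made into Illumina libraries, per the labels' protocols. TopHat2, HTSeq, edgeR and mm10 are named without versions in the submitters' processing notes. The authors deposited 1 table per sample with values in CPM, which sum to 1000000. Strand use in counting and the treatment of reads with several positions are not stated in these sources. Every value was a whole multiple of what 1 read is worth (tolerance 1e-06), so whole reads were recovered (43679297 to 59170793 per sample).

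CPM was divided by median-of-ratios size factors (0.981 to 1.05). The filter kept 13898 genes that reached a CPM of 1 in 2 or more samples, and these were tested with limma 3.58.1 (R 4.3.3) on log2(value + 0.5) with a mean-variance trend and Benjamini-Hochberg adjustment at 0.05. This pseudocount understates the change of low genes. Alternatives were other pseudocounts, filters and scalings, no trend, a replicate block, edgeR 4.0.16 and DESeq2 1.42.0 on recovered reads, and each sample left out.

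Gene positions and lengths came from GENCODE M21 (GRCm38, the same assembly as mm10) and promoters from RefSeq (GRCm38.p6), which matched 6 of the 8 genes. The mucin genes and the gene lists were chosen with earlier results of these data known. Named were every mucin gene, all called genes and the 2 smallest p of each list, and 3 genes most like each mucin gene. Other genes are cell type markers, lie beside or overlap a mucin gene, or are said to be named after their values were seen. Muc19, Muc5ac and Galntl6 were named outside these rules. Intervals of differences come from limma and rest on the spread between samples, while limits at 0 reads cover counting error only. The floxed gene is not reported here.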

Additional observations from a re-analysis of the deposited data

Results flagged for a closer look

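Muc5b, the secreted gel-forming mucin, had 1 castrated sample far from the others. Castrated sample 2 was at 8.557 rescaled CPM, while castrated samples 1, 3 and 4 lay between 0 and 0.631. The gap to the nearest of them was 0.926 of the range of the group, above the Dixon 95% critical value for 4 samples. This ratio was taken on rescaled CPM, not on the log2 scale used to compare the groups, and describes rescaled CPM only. About 1 group in 20 passes that limit by chance. The intact samples were at 1.75 and 7.97, so the single castrated sample lay close to the higher intact one.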

How the results depend on the processing

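Over all genes limma called 274. The count was 170 with no filter, 417 with the replicate block, 1293 by DESeq2 and 1 to 1052 with 1 sample left out (1 without intact sample 2, 9 without intact sample 1, 78, 83 and 46 without castrated samples 1, 2 and 3, and 1052 without castrated sample 4). Of the calls 35.4% were higher in castrated samples, against 26.6% by edgeR and 51.2% by DESeq2. Leaving out an intact sample leaves 1, which is assumed to vary like the castrated ones.

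Of the mucin genes 1 passed the threshold, and 0 with no filter, with no trend and by edgeR. With 1 sample left out the count was 0 to 1, and it was 1 without castrated sample 4. That gene is Muc13, which was listed for this contrast, so these counts describe the settings and support nothing about it. The rise of Muc13 was 2.99 to 3.64 on the log2 scale in those fits. The log2 difference ranged from -1.09 to 0.33 for Muc1, from -0.89 to 0.60 for Muc20 and from -0.20 to 0.64 for Muc4. Its sign turned for Muc1 without intact sample 2 (0.33), for Muc20 without intact sample 2 (0.60) or castrated sample 1 (0.09), and for Muc4 without intact sample 1 (-0.10), castrated sample 2 (-0.20) or castrated sample 4 (-0.08). Muc5b stayed below 0 (-2.71 to -0.79). Muc15 was at 1.08 to 1.70 in 4 fits with 1 sample left out, at 3.39 by edgeR and at 3.44 by DESeq2. Muc15 was not tested without castrated sample 2 or 4, through which it passed the filter, so nothing is read from its sign. The causes were not tested.

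Over the 6 gene lists 2 of 81 tested genes were called (1.97% of all tested genes). The count was 5 with the replicate block (417 of all 13898 genes) and 15 by DESeq2 (9.31% of all genes it tested). With 1 castrated sample left out it was 0 to 13. The 13 came without castrated sample 4, where 1052 of all 13786 tested genes were called. The DESeq2 count includes Galntl6 and Pgr, which passed the filter through castrated samples alone, so nothing is read from these counts. The medians of the core extension and regulator lists, -0.02 and -0.03, were 0.02 and 0.01 on CPM as deposited. Both were also above 0 in several other settings, though not in all. The core extension list was at 0.05 with the replicate block and without castrated sample 4, and at -0.05 without intact sample 2. The regulator list was at 0.05 by edgeR and by DESeq2, and at -0.14 without intact sample 1. The granule list, at 0.16, had a median of -0.23 with a filter of CPM at least 5, -0.02 with no filter and -0.16 without intact sample 1. The initiation list, at 0.04, was at -0.03 with no filter and with a filter of CPM at least 5. It was at -0.06 and -0.01 without castrated samples 3 and 4. The samples share only replicate numbers, and the deviations of same-numbered intact and castrated samples correlated at 0.0755 and 0.226 over genes.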

Other observations

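Several mucus genes were highest in intact sample 2. Muc2, the gel mucin of the intestine, was at 7.26 rescaled CPM there and at 0.163 in intact sample 1. Tff3, a trefoil peptide secreted with mucins, was at 74.3 against 1.05, and in castrated samples 1 to 4 it was at 8.69, 3.97, 6.91 and 0.451. Fcgbp, a mucus protein, was at 157 against 19.7, and at 9.07, 35.4, 8.71 and 34.7 in castrated samples 1 to 4. Muc13 did not share this difference, at 19.6 in intact sample 2 and 22.7 in intact sample 1. These genes were named after their values were seen, and with 1 sample no comparison was made.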
